A study of Mus musculus with 48 samples.

Results

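The genes described here are 37 aminoacyl-tRNA synthetases and partner proteins, taken by their current mouse gene symbols and not by any measured value. They comprise 19 genes for cytosolic enzymes, 16 genes for mitochondrial enzymes, and Aimp1 and Aimp2, which encode scaffold proteins. All 37 were among the 20622 genes with an RNA measurement and among the 16269 genes with a transcript on which ribosome footprints were counted.

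A synthetase activates its amino acid with ATP and joins it to the matching tRNA, which makes these enzymes the step between amino acid supply and the ribosome. Mammalian cells keep separate enzymes for the cytosol and for the mitochondrion, nearly all from separate nuclear genes. Gars1 and Kars1 each encode both forms, and Eprs1 carries the glutamyl and the prolyl enzyme in 1 chain. Several cytosolic enzymes are held with Aimp1 and Aimp2 in a multisynthetase complex, here represented by 9 members (Eprs1, Iars1, Kars1, Lars1, Mars1, Qars1, Rars1, Aimp1 and Aimp2). MYC is a transcription factor that drives growth and ribosome production, and ATF4 is the transcription factor of the amino acid response, in which cells short of amino acids raise transporters, biosynthetic enzymes and some cytosolic synthetases.

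Livers came from male mice of 2 to 4 months in 4 genotypes: wild-type (WT), Ctnnb1ex3/+ (B, activated β-catenin), R26-LSL-MYC (M, MYC expressed from the Rosa26 locus), and Ctnnb1ex3/+; R26-LSL-MYC (BM). Every mouse, WT included, had received AAV8.TBG.Cre, a virus whose TBG promoter restricts Cre to hepatocytes, so that the other cells of a B, M or BM liver kept the alleles unrecombined. Livers were taken 4 or 10 days after injection, from 3 mice in each of the 8 groups, and each sample is 1 mouse. From each of the 24 livers, the mRNA fragments shielded by ribosomes (RPFs) and the cytoplasmic RNA of the same lysate were sequenced, which gave 48 libraries.

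Levels are given as CPM, the counts of a gene divided by the scaled library size and brought to the usual fixed total, and changes as log2 fold changes with their standard errors (SE). Translational efficiency (TE) is the RPF level relative to the RNA level of the same mouse. A gene was called when its adjusted p was under 0.1 in edgeR's quasi-likelihood test, corrected by the Benjamini-Hochberg method over all genes tested, and every adjusted p below is of this kind unless another tool is named. All 37 members passed the filter on low counts in every RPF comparison. Pars2, the member with the fewest RPFs, did not pass it in RNA for B against WT and for WT at day 10 against day 4.

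RPF libraries held between 9742197 and 14380713 counts and RNA libraries between 3254141 and 6540116. RPFs of Glul, glutamine synthetase, were 825 to 862 CPM in WT mice of day 4 and 3061 to 4648 CPM in B mice. Glul and the β-catenin targets Axin2 and Lgr5 were each called higher in RPFs of B and BM at both days, by 1.77 to 3.38 on the log2 scale with all mice. Without BM mouse 1 of day 10 the BM values at that day were 1.48 for Glul, 2.01 for Axin2 and 1.02 for Lgr5, all called. The target Notum was higher in B (1.51 and 1.12 at days 4 and 10) and in BM at day 4 (1.38), and in BM at day 10 it was not called with all mice (0.32) and called lower without mouse 1 (-0.73). Myc RPFs were 2.43 to 18.3 CPM in WT mice and 57.5 to 62.1 CPM in M mice of day 4, while Myc RNA was 26.6 to 29.3 CPM and 28.9 to 34.9 CPM. Mouse 1 of the BM group of day 10 stood apart from the other 2: its Axin2 RPFs were 26.7 CPM against 10.5 and 6.20 CPM, and its Asns RPFs 84.3 CPM against 208 and 282 CPM. The counts of members called in this group are therefore given with and without that mouse, and so are the main changes of the members described in it. These are bulk livers, in which fewer cells of a type and less RNA per cell cannot be told apart.

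In WT livers, the cytosolic enzymes had far more ribosome footprints than the mitochondrial ones. Per coding kilobase, the median member of the cytosolic group had 43.2 RPF CPM, with a range of 15.8 to 188, and that of the mitochondrial group 8.65 RPF CPM, with a range of 1.98 to 26.7 (each gene the mean of 6 WT mice). Tars1 (threonine), Aars1 (alanine) and Nars1 (asparagine) led the order with 188 ± 10.1, 165 ± 17.2 and 152 ± 13.1 RPF CPM per coding kilobase (SD, n = 6), followed at a distance by Eprs1 with 77.6 ± 4.02. Neighbours among the first 3 overlapped, since Tars1 ranged from 178 to 204, Aars1 from 145 to 190 and Nars1 from 136 to 167. Vars1, the valyl enzyme, had the lowest cytosolic value, 15.8 ± 1.17, which lay below several mitochondrial enzymes. Iars2, the mitochondrial isoleucyl enzyme, was the highest of its class at 26.7 ± 2.43. Mars2 (mitochondrial methionine) and Pars2 (mitochondrial proline) came last, at 2.23 ± 0.373 and 1.98 ± 0.705, and their ranges overlapped.

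**Figure D1:**
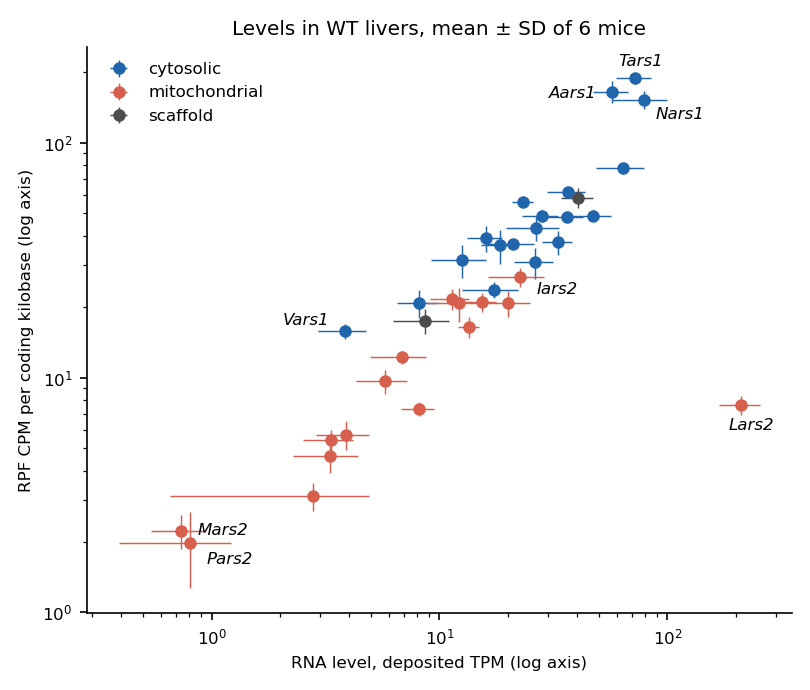
Ribosome footprints per coding kilobase (RPF CPM per kilobase, vertical log axis) against RNA level (deposited TPM, horizontal log axis) for the 37 members in WT livers, with the mean ± SD of 6 mice. Lars2 sits far to the right of the other members, at 212 TPM and 7.66 RPF CPM per coding kilobase, and cytosolic enzymes lie above most mitochondrial ones.

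In RNA, Lars2, the mitochondrial leucyl enzyme, was listed at 212 ± 43.4 TPM (RNA per transcript length, scaled to a fixed total per library) in WT livers, the highest of the 37, while its RPFs amounted to 7.66 ± 0.709 CPM per coding kilobase. Nars1, second in RNA, had 78.6 ± 21.4 TPM. The class medians in RNA were 26.5 TPM for cytosolic and 7.47 TPM for mitochondrial enzymes, so the classes differed in RNA as well as in footprints. What sets the Lars2 value was not tested. RPFs were counted on 1 transcript of each gene and RNA was summed over all its transcripts, of which 18 of the 37 members had more than 1 in the RNA tables.

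Expression of MYC alone raised most mitochondrial synthetases and a part of the cytosolic ones at day 4. In RPFs of M against WT, 12 of 16 mitochondrial enzymes, 7 of 19 cytosolic enzymes and both scaffolds were higher, 21 members in all, and 4 cytosolic enzymes were lower. Of all genes tested, 18.5% were called higher and 14.7% lower. The median log2 change was 0.43 for the mitochondrial class and 0.10 for the cytosolic class, beside 0.01 for all genes tested. Whether the classes differ was not tested. Without WT mouse 1, 16 members were higher and 1 lower.

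Vars1 had the largest rise among cytosolic enzymes. Its RPFs were 54.7, 55.8 and 59.1 CPM in WT mice and 133, 118 and 129 CPM in M mice of day 4. Every M value exceeded every WT value by more than the spread within either group, with a 2.29-fold difference (log2 change 1.20 ± 0.08 SE, adjusted p = 1.97e-05). Iars1, the cytosolic isoleucyl enzyme, had 139, 136 and 135 CPM in WT and 206, 192 and 206 CPM in M mice (log2 change 0.59 ± 0.07, adjusted p = 0.000323). Kars1, which charges lysine in both compartments, had 78.8, 77.6 and 82.2 CPM in WT and 111, 101 and 107 CPM in M mice (log2 change 0.45 ± 0.07, adjusted p = 0.00158). For both genes the groups did not overlap.

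Among mitochondrial enzymes, Vars2 (valine), Mars2 and Nars2 (asparagine) changed most at day 4. Vars2 RPFs were 15.2, 17.0 and 12.7 CPM in WT and 29.2, 27.0 and 26.5 CPM in M mice (log2 change 0.92 ± 0.12, adjusted p = 0.000496). Nars2 RPFs were 24.5, 33.0 and 28.1 CPM in WT and 50.7, 48.5 and 46.7 CPM in M mice (log2 change 0.81 ± 0.11, adjusted p = 0.000749). Mars2, at low counts, had 4.41, 3.64 and 3.39 CPM in WT and 6.49, 5.82 and 8.45 CPM in M mice (log2 change 0.88 ± 0.20, adjusted p = 0.0101). In all 3 genes each M mouse was above each WT mouse. RNA of the same genes rose by similar amounts, with log2 changes of 1.13 ± 0.18 for Vars2, 0.78 ± 0.12 for Nars2 and 0.91 ± 0.21 for Mars2, and each was called.

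**Figure D2:**
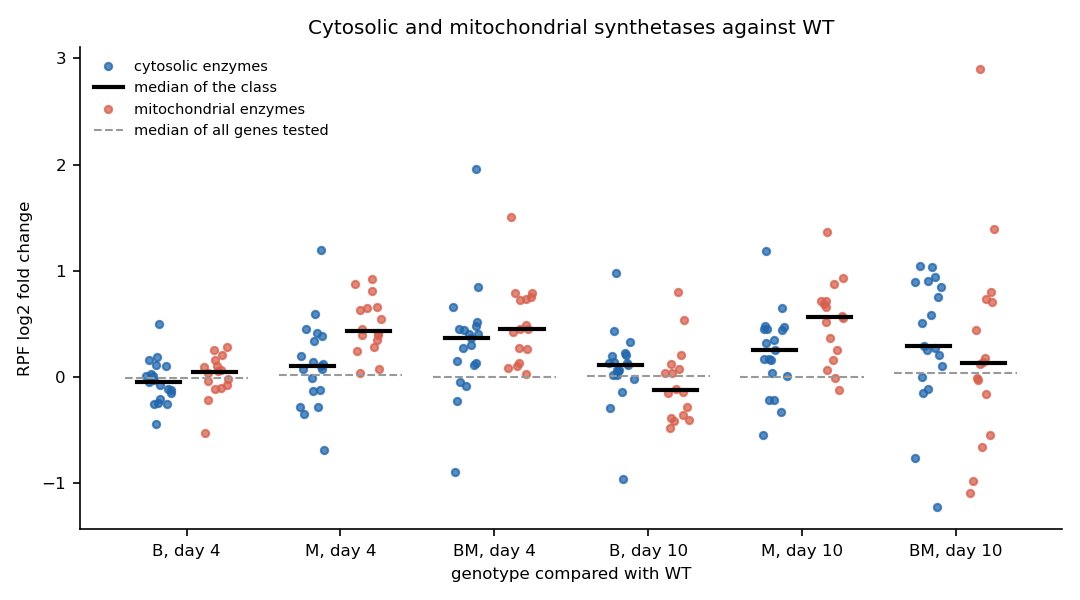
RPF log2 fold changes (vertical axis) of the 19 cytosolic and 16 mitochondrial enzymes in each genotype against WT, by day (horizontal axis). Points are genes, black bars class medians and dashed lines the median of all genes tested. In M at day 4 the mitochondrial median is 0.43 and the cytosolic median 0.10, and in BM at day 10 the mitochondrial points spread from -1.09 to 2.90.

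RNA gave fewer calls. In M against WT at day 4, 14 members were higher and 3 lower, against 13.5% and 10.3% of all genes. The 14 were 7 cytosolic and 6 mitochondrial enzymes and 1 scaffold. Without WT mouse 3, 8 were higher and 2 lower, and without M mouse 1, 8 were higher and 3 lower.

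At day 10, 19 members were higher in RPFs of M against WT and 1 was lower, against 10.6% and 8.8% of all genes. They were 10 of 16 mitochondrial enzymes, 8 of 19 cytosolic enzymes and 1 scaffold, with class medians of 0.56 and 0.26 for the mitochondrial and cytosolic enzymes. Single mice moved the count along with that of all genes: without WT mouse 3, 10 members were higher, without M mouse 1, 9, and without M mouse 2, 10, with 1 lower in each, while the number of all genes called higher went from 1198 to 634, 699 and 826. In RNA, 15 were higher and 2 lower, against 8.53% and 7.12% of all genes. There the count of higher members was 9 without WT mouse 3 and 8 without M mouse 1, with 1 lower in each case, and all genes called higher went from 951 to 541 and 521. Vars1 had 66.5, 58.5 and 55.8 RPF CPM in WT and 127, 125 and 160 in M mice (log2 change 1.19 ± 0.13, adjusted p = 0.00242). Mars2 had 4.55, 3.17 and 3.12 in WT and 10.5, 8.79 and 9.08 in M mice (log2 change 1.37 ± 0.19, adjusted p = 0.00572). Rars2, the mitochondrial arginyl enzyme, had 19.4, 20.6 and 19.3 in WT and 42.2, 38 and 33.2 in M mice (log2 change 0.93 ± 0.11, adjusted p = 0.00298). Groups of all 3 genes were well apart.

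The days were compared directly through the difference between the M effect at day 10 and at day 4. With edgeR, 0 of 37 members were called in RPFs, where 1.18% of all genes were, and 0 of 37 in RNA, where 1.2% were. At an unadjusted p under 0.05 there were 4 members in RPFs (Farsa, Rars1, Rars2 and Wars1, all larger at day 10) and 2 in RNA, and DESeq2 called 1 in RPFs and 0 in RNA. Without M mouse 3 of day 10, 4 members were called in RPFs and 1 in RNA, all higher at day 10. In WT mice, day 10 against day 4 called 1 of 37 in RPFs (4.44% of all genes), which was Cars1, the cysteinyl enzyme. Cars1 RPFs were 97.4, 91.3 and 79.8 CPM at day 4 and 70.2, 68.8 and 65.5 CPM at day 10 (log2 change -0.39 ± 0.10, adjusted p = 0.0676). The call was lost with WT mouse 1 or 2 of day 4 or mouse 1 or 3 of day 10 left out, and 2 members were called without mouse 2 of day 10. In RNA of WT mice 0 of 36 members were called with edgeR or DESeq2, where 2.32% of all genes were, and 3 had an unadjusted p under 0.05.

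Aars1, the alanyl enzyme, moved in opposite directions in B and M livers. At day 4 its RPFs were 535, 463 and 507 CPM in WT, 628, 727 and 785 CPM in B, 314, 307 and 291 CPM in M and 540, 555 and 547 CPM in BM mice. B mice were above and M mice below all WT mice, and BM mice lay just above the WT range. The log2 change was 0.49 ± 0.10 in B (adjusted p = 0.0119) and -0.69 ± 0.08 in M (adjusted p = 0.000275), while BM did not pass the test (0.15). At day 10 the RPFs were 440, 430 and 409 CPM in WT, 910, 870 and 768 CPM in B, 303, 308 and 261 CPM in M and 439, 342 and 414 CPM in BM mice. The B rise was then 1.97-fold (log2 change 0.98 ± 0.11, adjusted p = 0.000807) and the M fall -0.55 ± 0.11 (adjusted p = 0.0188). BM stood between them and was higher than M at day 4 by 0.83 ± 0.07 (adjusted p = 4.51e-05). At day 10 the difference between BM and M was 0.43, not called, and 0.41 without BM mouse 1, called (adjusted p = 0.0387). BM at day 10 was not called against WT in RPFs (-0.11, and -0.18 without BM mouse 1). Aars1 RNA changed by 0.96 ± 0.14 in B and -0.53 ± 0.12 in M at day 10. In BM at day 10 the RNA change was -0.24, not called, and without BM mouse 1 it was called lower (-0.41, adjusted p = 0.0125).

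Tars1, the threonyl enzyme, fell in RPFs of BM livers at both days, of B livers at day 10 and, by less, of M livers at day 4. Its RPFs at day 4 were 424, 382 and 409 CPM in WT, 391, 317 and 325 CPM in B, 351, 292 and 334 CPM in M and 212, 217 and 211 CPM in BM mice. BM mice were all at about the same level, below every other mouse of that day. The log2 change was -0.90 ± 0.08 in BM (adjusted p = 5.46e-06) and -0.28 ± 0.09 in M (adjusted p = 0.0343), and the B value of -0.25 was not called. At day 10 the RPFs were 379, 381 and 369 CPM in WT, 178, 189 and 218 CPM in B, 308, 328 and 263 CPM in M and 121, 174 and 191 CPM in BM mice. By then the B mice had separated from WT (log2 change -0.96 ± 0.12, adjusted p = 0.00123), as had the BM mice (-1.23 ± 0.20, adjusted p = 0.00326, and -1.06 without BM mouse 1). BM was also lower than M at both days, by -0.63 ± 0.08 at day 4 and -0.91 ± 0.22 at day 10 (-0.69 without BM mouse 1). The RNA changes at day 10 were -0.95 ± 0.12 in B and -1.31 ± 0.15 in BM (-1.19 without BM mouse 1). Tars1 RNA was called lower in M and in BM against WT at both days. The 5 hepatocyte markers, described at the end, summed to 68066 to 87375 RPF CPM in WT and 35917 to 39475 in B mice of day 10, and their part in the Aars1 and Tars1 values was not tested.

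The sequence before the start of the counted transcript was searched in all members because several of them moved together. The motifs were the E-box CACGTG, which MYC can bind, and TGATGNAA, the core of the amino acid response element that ATF4 binds with a C/EBP partner, on both strands of the 250 bases before the start site in GRCm39. The E-box was present in 3 of 37 members (Aars1, Farsb and Iars1, all cytosolic), or 8.11%, and in 6.87% of the 16249 promoters read the same way. The response element core was present in 2 of 37 members (Aars1 and Tars1), or 5.41%, and in 2.65% of all promoters. Vars1 and Mars2, the members with the largest rises, held neither. Matched windows are shown 5′ to 3′ on the strand of the gene, 30 bases each, with the motif in capitals. The 2 motifs share no bases in any of them.
Aars1, E-box, chr8:111760316-111760345, plus strand: agtcaaccctgtCACGTGacactccatgtc
Aars1, response element core, chr8:111760472-111760501, plus strand: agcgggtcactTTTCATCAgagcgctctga
Farsb, E-box, chr1:78465556-78465585, minus strand: ttagacaggcatCACGTGagacagcccaag
Iars1, E-box, chr13:49835525-49835554, plus strand: gaccaatcgccaCACGTGttgtttgtaggt
Tars1, response element core, chr15:11399752-11399781, minus strand: tagggcggggccaggagtcccgTTGCATCA

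Counted from the start site, the Aars1 core shown begins at -25 and its E-box at -180, the Tars1 core at -8, and the E-boxes of Farsb and Iars1 both at -39. The Aars1 windows, and part of the Tars1 window, are exonic in other annotated transcripts of the same gene. The genes that carry the response element core, Aars1 and Tars1, moved in opposite directions in B livers, as the values above show. A match describes letters in the window and nothing more, and whether a motif bears on any change was not tested.

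**Figure D3:**
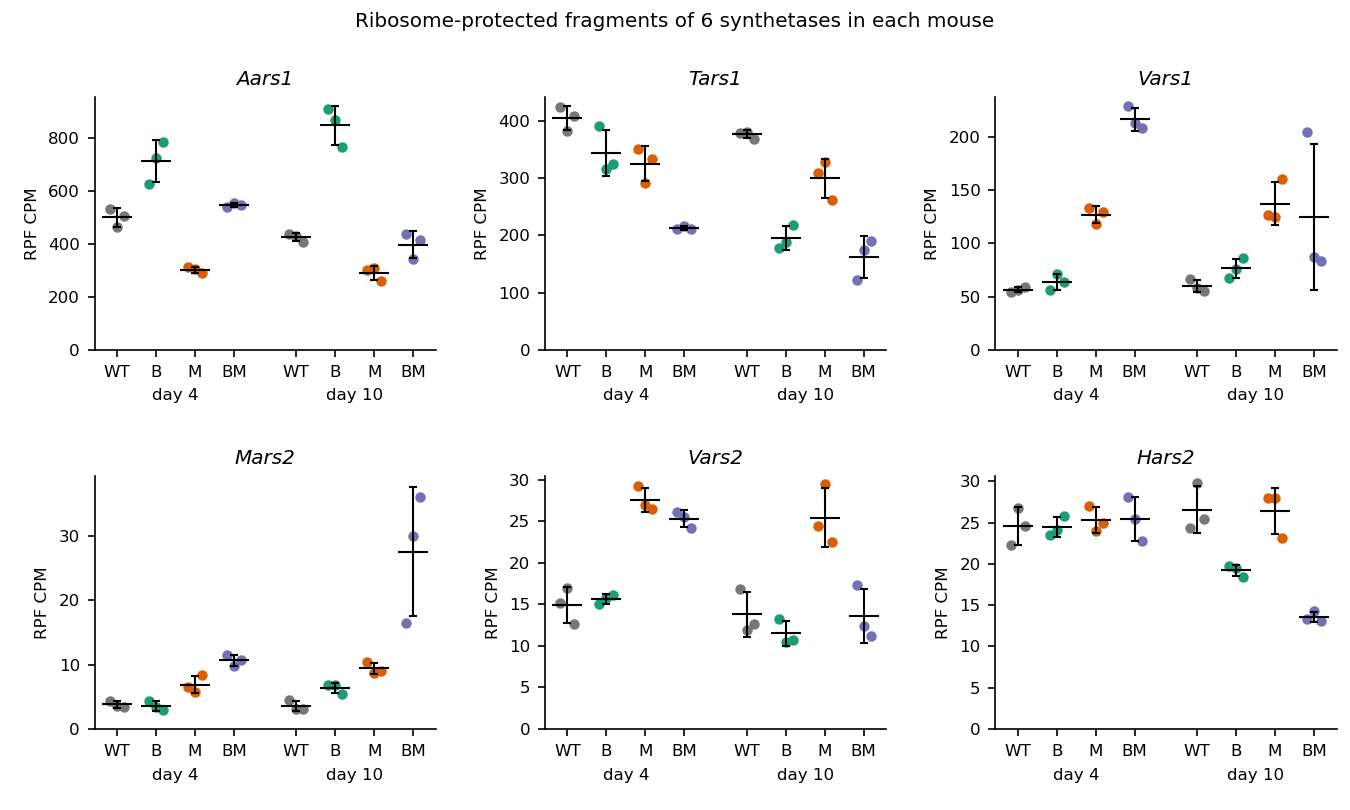
RPF CPM (vertical axis, from 0) of 6 synthetases in each mouse, by genotype and day, with the mean ± SD of 3 mice. Aars1 is highest in B and lowest in M, Tars1 falls in B and BM, and in the Vars1 and Mars2 panels 1 BM mouse of day 10 lies apart from the other 2.

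In B livers, the share of synthetases called was near or below the share of all genes. At day 4, 3 of 37 members were called in RPFs of B against WT, where 12.5% of all genes were. They were Aars1, Iars2 and Wars1, the tryptophanyl enzyme, whose mRNA is also induced by interferon. Wars1 had 50.9, 41.5 and 45.8 RPF CPM in WT and 32.9, 33.9 and 35.8 in B mice, without overlap (log2 change -0.45 ± 0.10, adjusted p = 0.0179). Iars2 had 73.2, 79.3 and 68.8 in WT and 88.5, 90.2 and 91.9 in B mice (0.28 ± 0.08, adjusted p = 0.0663). Without WT mouse 2, 5 members were called. In RNA, 2 of 36 were called, against 8.14% of all genes: Aars1 was higher and Rars1, the arginyl enzyme of the cytosol, was lower (-0.35). With any 1 of the 6 mice left out, at most 1 of them was called: 0 without WT mouse 3 or B mouse 3, and 1 without WT mouse 1, WT mouse 2, B mouse 1 or B mouse 2.

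At day 10 of B against WT, 4 members were higher and 5 lower in RPFs, against 13.1% and 12.1% of all genes, with class medians of 0.11 (cytosolic) and -0.13 (mitochondrial). The higher ones were Aars1, Gars1, Mars2 and Rars2, and the lower ones Tars1, Mars1, Aars2, Hars2 and Lars2. Gars1, the glycyl enzyme of both compartments, had 102, 100.04 and 103 RPF CPM in WT and 134, 144 and 139 in B mice (log2 change 0.43 ± 0.10, adjusted p = 0.0149). Mars1, the cytosolic methionyl enzyme, had 135, 119 and 124 in WT and 101, 104 and 107 in B mice (-0.29 ± 0.10, adjusted p = 0.0808). Hars2 (mitochondrial histidine) had 24.4, 29.8 and 25.5 in WT and 19.7, 19.6 and 18.5 in B mice (-0.48 ± 0.12, adjusted p = 0.0225). Mars2 (0.79 ± 0.21) and Rars2 (0.53 ± 0.15) were the mitochondrial enzymes that rose. Leaving out WT mouse 1 or WT mouse 3 brought the number called to 5, and leaving out B mouse 2 brought it to 4. Without B mouse 1, 2 were lower. In RNA, 2 members were higher (Aars1 and Vars1) and 1 lower (Tars1), against 8.14% and 7.48%, and 7 were called without B mouse 3.

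The combined genotype gave the broadest rise, at day 4. In RPFs of BM against WT, 24 members were higher and 2 lower, against 26.2% and 24.7% of all genes. The 24 comprised 12 of 19 cytosolic enzymes, 10 of 16 mitochondrial enzymes and both scaffolds, and the class medians were 0.37 and 0.45, beside 0.00 for all genes. The lower members were Tars1 and Wars1, and with 1 mouse left out at a time the number lower in RPFs ranged from 1 to 2. In RNA, 17 were higher and 2 lower, against 21.3% and 20.6%. The members of the multisynthetase complex rose nearly as a group at day 4, 8 of 9 in RPFs, with a median log2 change of 0.45. In RPFs of BM at day 10, Kars1, Mars1 and Qars1 were not called. Without BM mouse 1 of day 10, 6 of the 9 were higher and 1 lower, against 33.4% and 32.9% of all genes.

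Vars1 RPFs were 229, 213 and 208 CPM in BM mice of day 4, 3.89 times the WT level (log2 change 1.96 ± 0.08, adjusted p = 7.21e-08). The BM mice were above all M mice of that day as well (0.75 ± 0.07 against M, adjusted p = 0.000119). Mars2 behaved alike, with 11.6, 9.83 and 10.8 RPF CPM in BM mice (1.50 ± 0.16 against WT, adjusted p = 2.5e-05). Iars1 had 239, 250 and 235 CPM (0.84 ± 0.07, adjusted p = 5.8e-06) and Gars1 98.4, 101 and 101 CPM in WT and 162, 158 and 146 CPM in BM mice (0.66 ± 0.07, adjusted p = 3.87e-05). Iars2 had 125, 134 and 118 CPM (0.79 ± 0.09, adjusted p = 2.84e-05) and Vars2 26.2, 25.6 and 24.2 CPM (0.79 ± 0.12, adjusted p = 0.000289). In each of these genes, no BM mouse overlapped a WT mouse.

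Set against M at day 4, the BM livers had 11 members higher and 3 lower in RPFs, against 18.8% and 19.3% of all genes, and 7 higher and 3 lower in RNA, against 14.6% and 15.9%. Of the 11, 9 were cytosolic enzymes. Without M mouse 2, 7 were higher and 3 lower in RPFs. Nars2, which rose in M mice, was not called in BM mice of day 4, which had 30.5, 26.9 and 28.1 RPF CPM, all within the WT range. Its log2 change in BM against M was -0.79 ± 0.08 (adjusted p = 0.000131).

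At day 10 of BM, synthetases were called in both directions. In RPFs against WT, 17 members were higher and 6 lower, against 24.5% and 22.3% of all genes. Among mitochondrial enzymes 6 were higher (Iars2, Mars2, Nars2, Rars2, Tars2 and Wars2) and 4 lower (Aars2, Cars2, Hars2 and Sars2), with a median of 0.13. Cytosolic enzymes gave 9 higher and 2 lower (Cars1 and Tars1), with a median of 0.29, and both scaffolds were higher. Without BM mouse 1 the counts were 19 and 7, where 33.4% and 32.9% of all genes were called, and the mitochondrial enzymes again gave 6 higher and 4 lower of 16. Without WT mouse 3, 11 were higher and 5 lower. In RNA, 14 were higher and 6 lower, against 22.9% and 22.8%, and 14 and 8 without BM mouse 1, against 27.9% and 29.2%.

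Mars2 had the largest change of any member, with 16.5, 30 and 36.1 RPF CPM in BM mice of day 10 against 4.55, 3.17 and 3.12 in WT, a 7.47-fold difference (log2 change 2.90 ± 0.34, adjusted p = 0.000986). BM mouse 1 was the lowest of its group and still above every WT, B and M mouse. Rars2 had 41.2, 56.9 and 59.3 RPF CPM (1.39 ± 0.18, adjusted p = 0.00147). Aars2, the mitochondrial alanyl enzyme, fell instead, from 16.9, 13.8 and 16.9 CPM in WT to 10.4, 6.37 and 5.62 CPM in BM mice (-1.09 ± 0.26, adjusted p = 0.0145). Hars2 fell from 24.4, 29.8 and 25.5 CPM to 13.3, 14.3 and 13.1 CPM (-0.98 ± 0.16, adjusted p = 0.00313), and the RNA change was -1.22 ± 0.20 (-1.45 without BM mouse 1). Hars1 and Hars2 lie head to head on chromosome 18 and their annotated ends overlap. Hars1 itself was not called at day 10 (0.25 in RPFs, and 0.27 without BM mouse 1). Leaving out BM mouse 1 gave RPF changes of 3.16 for Mars2, 1.54 for Rars2, -1.41 for Aars2 and -0.97 for Hars2, all 4 of them called.

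Of the cytosolic enzymes in BM mice of day 10, Iars1 reached 262, 279 and 311 RPF CPM against 137, 142 and 131 CPM in WT (1.04 ± 0.15, adjusted p = 0.00198) and Gars1 185, 190 and 216 CPM (0.94 ± 0.14, adjusted p = 0.00253). Eprs1, the fused glutamyl and prolyl enzyme, reached 592, 672 and 747 CPM against 345, 370 and 352 CPM (0.90 ± 0.16, adjusted p = 0.00505). Lars1, the leucyl enzyme that also reports leucine to mTORC1, reached 146, 147 and 175 CPM against 82.0, 92.6 and 75.6 CPM (0.89 ± 0.16, adjusted p = 0.00451). In all 4 the groups were separate. Cars1 went the other way, to 47.1, 35.3 and 39.2 CPM against 70.2, 68.8 and 65.5 CPM (-0.76 ± 0.15, adjusted p = 0.00746). With BM mouse 1 left out, the changes were 1.10 for Iars1, 0.99 for Gars1, 0.99 for Eprs1, 0.94 for Lars1 and -0.88 for Cars1, and all 5 were called.

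**Figure D4:**
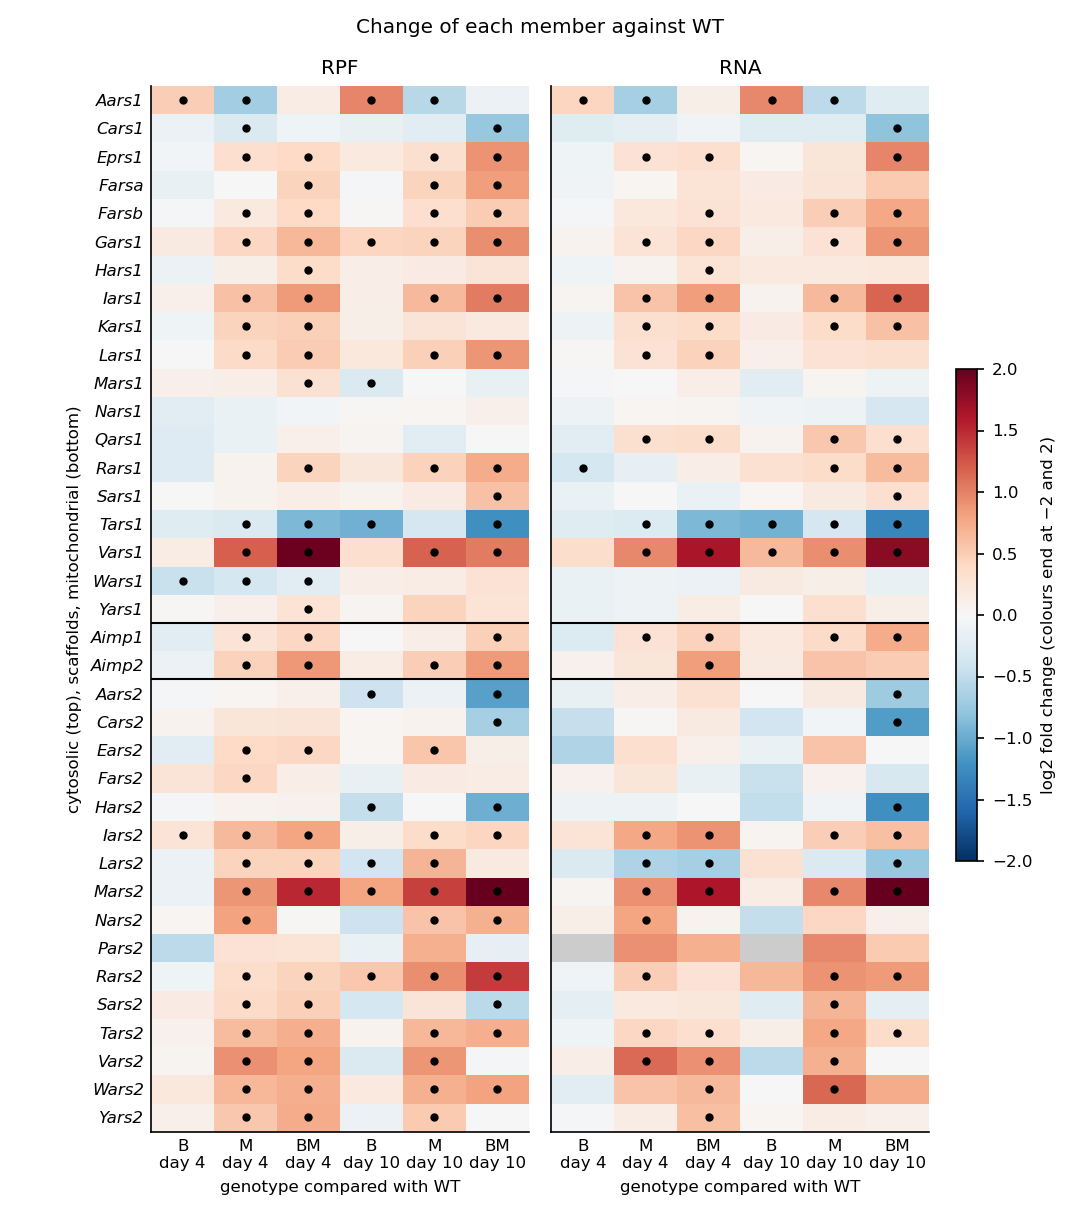
Log2 fold change (colour, ending at -2 and 2) of each member against WT in RPFs (left) and RNA (right), with columns for genotype and day and a dot where the adjusted p is under 0.1. Grey marks Pars2 where its RNA was too low to test. Red runs through Vars1 and Mars2 in M and BM, and in BM at day 10 blue appears in Aars2, Cars2, Hars2 and Sars2.

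The BM livers of day 10 were also compared with M livers. In RPFs of BM against M, 3 members were higher (Eprs1, Gars1 and Mars2) and 11 lower, against 16.0% and 16.7% of all genes. Of the 11, 9 were mitochondrial enzymes (Aars2, Cars2, Ears2, Hars2, Lars2, Pars2, Sars2, Vars2 and Yars2), and the mitochondrial median was -0.48 beside 0.16 for cytosolic enzymes and 0.01 for all genes. Whether the classes differ was not tested. Vars2 was among the lower ones, with 24.4, 29.4 and 22.5 RPF CPM in M and 17.3, 12.3 and 11.2 in BM mice (-0.92 ± 0.21, adjusted p = 0.0241, and -1.08 without BM mouse 1). In RNA, 6 were higher and 8 lower, against 16.3% and 16.6%, and 6 of the 8 were mitochondrial. The number of calls depended strongly on single mice: without BM mouse 1, 14 members were higher and 12 lower in RPFs, of which 3 and 9 were mitochondrial, while 30.5% and 28.6% of all genes were called. With M mouse 1, M mouse 2 or BM mouse 2 left out it fell to 3, 4 and 3 members called, and with BM mouse 3 left out to 8. Calls over all genes fell with them, from 1841 higher and 1928 lower to 636 and 836, 678 and 848, 873 and 843, and 1006 and 1140. In RNA, 10 members were higher and 9 lower without BM mouse 1, against 24.9% and 25.5% of all genes. With M mouse 2 left out, 8 were called in RNA, 4 of them lower, and with BM mouse 2 left out 5 were lower. The mitochondrial median without BM mouse 1 was -0.46.

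The change between the days was tested in 1 fit. For the BM effect at day 10 minus that at day 4, 6 members were higher and 9 lower in RPFs, against 17.2% and 18.6% of all genes, and 5 higher and 6 lower in RNA, against 13.4% and 16.6%. Of the 9 lower in RPFs, 6 were mitochondrial (Aars2, Cars2, Hars2, Sars2, Vars2 and Yars2). Without BM mouse 1 of day 10, 25 members were called in RPFs, 11 higher and 14 lower, where 25.8% and 31.5% of all genes were, and 13 in RNA, 6 higher and 7 lower, where 19.7% and 23.8% were. The number higher in RPFs was 3 with any of 8 other mice left out: mouse 1 or 3 of WT and any BM mouse of day 4, and WT mouse 1, BM mouse 2 or BM mouse 3 of day 10. Yars2, the mitochondrial tyrosyl enzyme, had 48.3, 46.4 and 47.2 RPF CPM in BM mice of day 4 and 26.5, 26.6 and 28.3 at day 10, where WT mice had 27.3, 28.5 and 30.1 and then 26.3, 31.0 and 23.9. It was higher at day 4 (0.75 ± 0.09) and not called at day 10 (-0.01), and the difference was -0.75 ± 0.16 (adjusted p = 0.00545, and -0.76 without BM mouse 1 of day 10).

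The RPFs of Nars1, Pars2 and Qars1 were called in no genotype against WT at either day when all mice were used. Qars1 without BM mouse 1 was called lower in BM at day 10 (-0.48, adjusted p = 0.0101). Its RNA, in contrast, was called higher in M and BM against WT at both days.

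The scaffolds rose with MYC. Aimp1, which holds the complex together and binds the arginyl enzyme, had 44.7, 44.9 and 51.9 RPF CPM in WT, 57.4, 50.8 and 58.8 in M and 64.4, 66.6 and 54.8 in BM mice of day 4. The differences were 0.27 ± 0.09 in M (adjusted p = 0.0592) and 0.42 ± 0.10 in BM (adjusted p = 0.00631). Aimp2 had 15.2, 13.7 and 17.4 in WT, 21.4, 18.5 and 22.3 in M and 29.9, 26.5 and 26.5 in BM mice, which ordered the 3 genotypes without overlap. Its log2 change was 0.46 ± 0.12 in M (adjusted p = 0.0218), 0.86 ± 0.11 in BM (adjusted p = 0.000124) and 0.40 ± 0.11 in BM against M (adjusted p = 0.0195). At day 10 Aimp2 was 0.49 ± 0.13 higher in M and 0.86 ± 0.18 higher in BM, and Aimp1 was called in BM (0.47 ± 0.15) and not in M (0.13). Without BM mouse 1 of day 10 the BM values were 0.94 for Aimp2 and 0.37 for Aimp1, both called. M and WT mice overlapped for Aimp1 at day 4. In B livers the scaffolds had log2 changes from -0.22 to 0.15, which did not pass the test. Aimp1 RNA was called higher in M and BM against WT at both days. Aimp2 RNA was called higher in BM at day 4 and was not called in M at day 4. In BM at day 10 it was not called either (0.51, and 0.53 without BM mouse 1).

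The cytosolic and mitochondrial enzymes for the same amino acid were set side by side for the 13 amino acids with 1 member gene for each compartment. The difference within a pair was not tested. In RPFs of M at day 4, both genes were higher in 3 of these pairs, the genes moved in opposite directions in 2, the mitochondrial gene alone was called in 5, the cytosolic gene alone in 2, and neither in 1. In BM at day 4, both were higher in 6 pairs, the directions were opposite in 2, 1 gene alone was called in 2 pairs, and neither was in 3. For alanine at day 10, Aars1 rose and Aars2 fell in B mice. For threonine in M and BM at day 4, Tars1 fell and Tars2 rose: Tars2 RPFs were 36.0, 37.9 and 35.3 CPM in WT, 57.5, 51.9 and 55.7 in M and 63.8, 56.7 and 56.6 in BM mice (0.63 ± 0.08 and 0.72 ± 0.09, both called). For tryptophan in M and BM at day 4, Wars1 fell (-0.35 ± 0.11 and -0.23 ± 0.10) and Wars2 rose (0.66 ± 0.19 and 0.73 ± 0.20). For methionine, Mars1 was not called in M at day 4 (0.14), where Mars2 was, and in BM at day 4 both were called higher (0.30 and 1.50). Valine and isoleucine rose in both compartments in M and BM at day 4, and for histidine in BM at day 10 Hars2 fell while Hars1 was not called. For serine in BM at day 10, Sars1 rose by 0.59 and Sars2 fell by 0.55 on the log2 scale (0.74 and -0.56 without BM mouse 1, both called).

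TE was called for Lars2, whose RNA in WT livers stands far above its footprints. Whether all RNA reads assigned to Lars2 come from its transcript was not tested, and its TE values carry that limit. It had log2 ratios of RPF to RNA CPM of -4.89, -4.56 and -5.07 in WT, -3.58, -3.79 and -4.02 in M and -3.53, -3.31 and -4.25 in BM mice of day 4. All M and BM mice lay above all WT mice. The TE change was 1.06 ± 0.20 in M (adjusted p = 0.0143) and 1.11 ± 0.25 in BM (adjusted p = 0.0341). It came from RPFs and RNA that moved apart: in M mice the RPFs rose by 0.45 ± 0.10 (28.5, 25.7 and 30.6 CPM against 20.4, 22.9 and 20.3 CPM), and the RNA changed by -0.61 ± 0.14 (342, 356 and 498 CPM against 606, 543 and 683 CPM). In edgeR the call was lost for M without WT mouse 3 or M mouse 1, and for BM without WT mouse 1, WT mouse 3 or BM mouse 2.

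Since RPFs and RNA came from the same lysate, TE was also tested with the mouse as a block. The values for Lars2 at day 4 were then 1.08 in M (adjusted p = 1.11e-05) and 1.16 in BM (adjusted p = 6.5e-05). At day 10 the paired fit called Lars2 in all 3 genotypes, with 1.00 in M (adjusted p = 0.0609), 0.91 in BM (adjusted p = 0.0309) and -0.69 in B (adjusted p = 0.012), where the unpaired fit called none of them. Over all genes, the paired fit called 182 higher and 94 lower of 10405 in M and 397 and 253 of 10528 in BM at day 4, and at day 10 28 and 6 of 10453 in M, 248 and 295 of 10431 in BM and 140 and 136 of 10632 in B. The paired fit also called Qars1 lower in M at day 4 (-0.45, adjusted p = 0.0729).

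For TE, 1 of 37 members was called in M and 1 of 37 in BM at day 4, where 0.971% and 2.23% of all genes were. In B at day 4 edgeR called 0 of 36 (0.0488% of all genes), and at day 10 it called 0 of 36 in B (0.0564%), 0 of 37 in M (0.0%) and 0 of 37 in BM (0.259%). At an unadjusted p under 0.05 these 4 comparisons held 1, 3, 2 and 2 members, and DESeq2 called 0, 0, 0 and 1. Without BM mouse 1 of day 10, however, 6 members were called higher and 4 lower in BM, in a fit that called 21.5% of all genes. The higher ones were Lars1, Lars2, Mars2, Nars1, Nars2 and Rars2, and the lower ones Aimp1, Kars1, Qars1 and Vars1. Without M mouse 3, Qars1 was called lower in M at day 10 (-1.18, adjusted p = 0.00102).

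**Figure D5:**
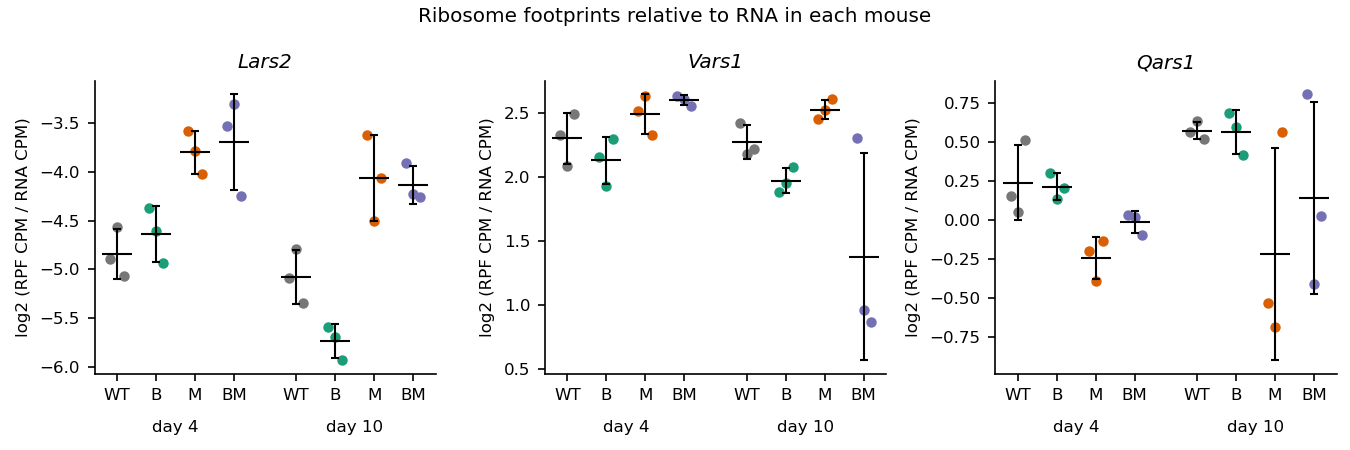
Log2 ratio of RPF CPM to RNA CPM (vertical axis) of Lars2, Vars1 and Qars1 in each mouse, by genotype and day, with the mean ± SD of 3 mice. Lars2 is higher in M and BM than in WT, Vars1 is lower in 2 of the 3 BM mice of day 10, and Qars1 splits within the M and BM groups of day 10.

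Vars1 is given here with and without BM mouse 1. Its RNA in BM mice of day 10 was 41.3, 44.9 and 45.7 CPM, against 12.4, 12.9 and 12.0 CPM in WT (log2 change 1.81 ± 0.14, adjusted p = 5.2e-05). Its RPFs were 204, 87.3 and 83.3 CPM against 66.5, 58.5 and 55.8 CPM (1.04 ± 0.34, adjusted p = 0.0457). The 3 BM mice thus had nearly the same RNA, while mouse 1 had far more RPFs than the other 2. The log2 ratios of RPF to RNA were 2.31, 0.96 and 0.87 in BM mice, and 2.42, 2.18 and 2.21 in WT mice. Without mouse 1 the TE change was -1.38 (adjusted p = 0.000273), and with it -0.80, which was not called. The RPF change without mouse 1 was 0.49 (adjusted p = 0.00456) and the RNA change 1.85. Qars1, the glutaminyl enzyme, gave 117, 48 and 59.4 RPF CPM in the same mice with RNA of 67.0, 63.7 and 58.4 CPM. In M mice of day 10 its RPFs were 56.1, 47.7 and 87.5 CPM with RNA of 81.2, 76.6 and 59.1 CPM, and WT mice had 74.9, 80.4 and 67.3 RPF CPM. In each of these 2 groups 1 mouse had far more Qars1 RPFs than the other 2. In M it had the lowest RNA of its group and in BM the highest, by a small margin, and what sets these mice apart was not tested.

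Outside the set, 14 other genes of tRNA charging were tested. In RPFs against WT, 8 were higher in M and 9 in BM at day 4, with none lower, and at day 10 6 were higher in M, again with none lower, and 5 higher and 1 lower in BM (8 and 1 without BM mouse 1, median 0.46). Of all genes, 18.5% and 26.2% were higher in M and BM at day 4, and 10.6% and 24.5% at day 10, when 22.3% were lower in BM. Without BM mouse 1, 33.4% of all genes were higher and 32.9% lower. In B at day 10, 1 of the 14 was called in each direction, against 13.1% and 12.1% of all genes. Of these genes, 2 are named here, chosen after their values were seen. Eef1e1, a further protein of the multisynthetase complex, rose in RPFs by 0.53 in M and 1.02 in BM at day 4 and by 1.87 in BM at day 10 on the log2 scale (2.12 without BM mouse 1), all called. Mtfmt, which formylates the mitochondrial initiator tRNA, was called lower in BM at day 10 against WT (-1.04) and against M (-1.31), with -1.20 and -1.42 for Mtfmt without BM mouse 1.

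The mitochondrial translation factors gave 5 of 9 higher in M at day 4 (median 0.31), and 2 of 9 in M at day 10 (median 0.20), where 18.5% and 10.6% of all genes were. In BM 3 of 9 were higher at day 4 (median 0.02), where 26.2% of all genes were. At day 10 their median in BM was 0.08, or 0.17 without BM mouse 1. In that fit 3 were called higher and 1 lower, against 33.4% and 32.9% of all genes. Tufm, the mitochondrial elongation factor, had a log2 change of 0.44 in M at day 4 and of -0.65 in BM against M at day 10, both called. Of the ribosome biogenesis genes, 11 of 15 in M and 15 of 15 in BM were higher at day 4, and 14 of 15 and 15 of 15 at day 10, with medians of 0.70, 1.11, 1.23 and 1.89. The shares of all genes called higher were 18.5%, 26.2%, 10.6% and 24.5% in the same order. In the BM effect at day 10 minus that at day 4, 8 of those 15 were called higher, against 17.2% of all genes. Without BM mouse 1 of day 10 it was 12 of 15, against 25.8%. In the same difference 2 of 16 mitochondrial synthetases were called higher (Mars2 with 1.40 and Rars2 with 0.95) and 6 lower, against 18.6% of all genes for the latter direction.

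The amino acid response genes did not move as one. In BM at day 10, 11 of 17 tested were higher and 2 lower (median 1.15), against 24.5% and 22.3% of all genes. Without BM mouse 1, 11 of 19 tested were higher and 3 lower (median 0.88), against 33.4% and 32.9% of all genes. The summed RPFs of the list were 1714, 4049 and 5233 CPM in the BM mice, mouse 1 being the lowest, and 1101 to 1223 CPM in WT mice. The list includes Asns, asparagine synthetase, which had 84.3, 208 and 282 RPF CPM against 12.8, 39.4 and 7.09 in WT (log2 change 3.27). In M at day 10, 5 of 17 were higher and 3 lower (median 0.10), against 10.6% and 8.8% of all genes. In B at day 10, where Aars1 rose and Tars1 fell, 4 of 19 were higher (median 0.68), against 13.1% of all genes, and Slc7a5, a large neutral amino acid transporter, rose by 1.17. Atf4 itself was lower in M at both days (-0.67 and -0.68). Interferon response genes, the list to which Wars1 is related, were called lower for 3 of 14 in B, 5 of 14 in M and 10 of 14 in BM at day 4, against 6.26%, 14.7% and 24.7% of all genes. Their summed RPFs were 404 to 443 CPM in WT, 252 to 390 in B, 231 to 378 in M and 197 to 239 in BM mice of that day, where the Wars1 changes were -0.45 in B, -0.35 in M and -0.23 in BM, measured against the same WT mice. At day 10, 12 of 14 were called higher in B (median 1.39), against 13.1% of all genes, where Wars1 was not called (0.13). The part of these genes in the Wars1 values was not tested.

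Markers of liver cell types also moved with genotype. The 5 hepatocyte markers, Alb among them, summed to 68650 to 78374 RPF CPM in WT mice of day 4, 46798 to 59672 in M mice and 33495 to 39901 in BM mice, and 4 and 5 of them were called lower. At day 10 they summed to 68066 to 87375 in WT, 35917 to 39475 in B, 41718 to 43737 in M and 31415 to 44506 RPF CPM in BM mice, with 4 called lower in B, 3 lower in M, and 1 higher and 3 lower in BM. Kupffer cell markers were lower for 5 of 6 in BM at day 4 (534 to 621 RPF CPM in WT, 338 to 1001 in M and 314 to 331 in BM) and higher for 2 of 6 at day 10 (410 to 593 in WT, 657 to 725 in BM). Endothelial markers were lower for 5 of 6 and stellate markers for 2 of 4 in BM at day 4, where 24.7% of all genes were lower. In M they were lower for 3 of 6 and 2 of 4 at day 4 and for 4 of 6 and 1 of 4 at day 10, against 14.7% and 8.8% of all genes. Endothelial RPFs summed to 698 to 780 CPM in WT and 535 to 655 in M mice of day 4, and to 691 to 833 and 509 to 570 at day 10. Stellate RPFs summed to 618 to 678 CPM in WT and 505 to 582 in M mice of day 4, and at day 10 to 494 to 581 in M. Mouse 2 of the M group of day 4 had Kupffer RPFs of 1001 CPM, against 457 and 338 in the other M mice, and blood marker RPFs of 59 CPM against 24 and 16.9. Without that mouse, 21 members were higher and 3 lower in RPFs of M at day 4. Stellate markers were also lower for 3 of 4 in B at day 10, where 12.1% of all genes were (666 to 766 RPF CPM in WT, 365 to 517 in B). In BM mice of day 10, stellate RPFs summed to 398 to 585 CPM and endothelial RPFs to 561 to 754. Without BM mouse 1, 3 of 4 stellate markers were lower and none higher. Of the 6 endothelial markers, 2 were then higher and 3 lower, against 33.4% and 32.9% of all genes. The blood markers Cd3e and Cd79a were at 0 in 9 and 10 of the 24 RNA libraries. The part of these shifts in the synthetase values was not tested.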

How the data were processed

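Per the study's methods and the file headers, the authors trimmed reads with Cutadapt 1.18, removed duplicates by molecular identifier and used GENCODE vM27 transcripts of GRCm39. The deposited RPF counts are whole reads of 30 to 38 bases on 1 coding sequence per gene, leaving out the 20 codons at its start and the 10 at its end. The deposited expected counts and TPM of cytoplasmic RNA come from the authors' Bowtie2 2.3.5.1 alignments and RSEM 1.3.3. Deposited FPKM and isoform percentages were not used.

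The isoforms of each gene were added up and the resulting expected counts rounded to whole numbers. Groups were compared with edgeR 4.0.16 (R 4.3.3): TMM scaling, a filter for expression (minimum count 10, minimum total 15), the two-sided quasi-likelihood F test and Benjamini-Hochberg adjustment over all genes tested, with calls at an adjusted p under 0.1. Each comparison was fitted on its own groups, TE as the interaction of library kind and genotype. The script was tested on simulated data. P-values measure the spread between 3 mice per group, and the depth, given with the results, limits low genes such as Mars2 and Pars2.

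Members named with values in each mouse were, for each genotype against WT, up to 4 cytosolic and 3 mitochondrial members with the largest absolute change among those called, any member called for TE, both scaffolds, and enzymes of 1 amino acid of which 1 was called. Eprs1, Lars1, Cars1, Yars2 and Qars1 were added after their values were seen. The members and lists were chosen with earlier results of these data known. Alternatives were DESeq2 1.42.0, RLE size factors, no expression filter, a replicate block and leaving out each mouse. For the members every mouse was left out in turn, and BM mouse 1 of day 10 was singled out after seeing the data. For the gene lists outside the set only that mouse was left out. Deviations from group means of RPF and RNA of the same mouse correlated over 7184 genes (r 0.303 to 0.681 in 24 of 24 mice), and both libraries came from 1 lysate. Mouse was therefore used as a block in an alternative fit of TE, while the main TE fit had no mouse block. Some genes of tRNA charging and 1 sequence window are not reported here.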

Additional observations from a re-analysis of the deposited data

Results flagged for a closer look

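The effect of BM against WT differed between day 10 and day 4 for the following members, by edgeR's test of the difference itself (adjusted p under 0.1). In RPFs 6 of 37 were higher and 9 lower, against 17.2% and 18.6% of all genes, and in RNA 5 and 6, against 13.4% and 16.6%. Values are log2 changes at day 10 minus those at day 4, so that a negative value is a smaller or more negative BM effect at day 10. All of them use the BM group of day 10, in which mouse 1 stood apart, and are given with all mice. Without that mouse, every difference named here was called in the same direction except Yars2 in RNA (-0.41, adjusted p = 0.12), and 25 members were called in RPFs (11 higher, 14 lower, against 25.8% and 31.5% of all genes) and 13 in RNA (6 higher, 7 lower, against 19.7% and 23.8%). No explanation was tested.

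In RPFs of cytosolic enzymes, the difference was 0.53 for Wars1, 0.38 for Lars1, 0.51 for Eprs1 and 0.47 for Sars1. It was -0.91 for Vars1, -0.67 for Cars1 and -0.44 for Mars1.

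In RPFs of mitochondrial enzymes, the difference was 1.40 for Mars2 and 0.95 for Rars2. It was -1.05 for Hars2, -0.75 for Yars2, -1.18 for Aars2, -0.80 for Vars2, -0.91 for Cars2 and -1.01 for Sars2.

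In RNA, the difference was 0.48 for Rars1, 0.48 for Farsb, 0.63 for Eprs1, 0.47 for Gars1 and 0.48 for Sars1. It was -0.74 for Cars1, -1.23 for Hars2, -0.50 for Yars2, -1.01 for Aars2, -0.93 for Vars2 and -1.30 for Cars2. Cars1, Hars2, Yars2, Aars2, Vars2, Cars2, Eprs1 and Sars1 were called in both kinds of library with the same sign.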

How the results depend on the processing

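Of the 123 called values of named members, none changed sign under the alternatives run. With DESeq2, 15 of 123 named values lost their call, with no expression filter 5, with the replicate block 8 and with RLE size factors none. With 1 mouse left out at a time, calls were lost 112 times and kept 626 times.

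Total counts of members called, both directions together, moved beyond 1.5 times in these cases. DESeq2 called 1 in RPFs for the M effect between days, 1 in RNA for B at day 4, 11 in RNA for M at day 10 and 1 in TE for BM at day 10. RLE size factors called 1 in RNA for B at day 4. Without the expression filter the RNA counts were 1 for B at day 4, 5 for B at day 10 and 7 for the BM effect between days. With the replicate block, counts were 0 in RPFs for WT days, 1 in RNA for B at day 4, and in TE 2 for M at day 4 and 1 each for B, M and BM at day 10. Within totals that moved less, directions moved too. In RPFs of BM against M at day 10, higher members numbered 6 with DESeq2, 5 with RLE size factors and 1 with the block, against 3. In the BM effect between days higher RPF members fell from 6 to 3 with the block. In RNA of M at day 4, DESeq2 called 9 higher against 14. In RPFs of B at day 10, 3 were lower with DESeq2 or the block, against 5. The other directional counts that moved so far had at most 2 members under each setting, except RNA for the BM effect between days without the filter (2 higher against 5). For RPFs and RNA the block joins mice that share only a number: deviations of same-numbered mice correlated between -0.209 and 0.272, over 0.1 in 3 of 18 pairs. The cause of these moves was not tested.

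With 1 mouse left out at a time, the RPF counts ranged from 2 to 5 for B at day 4, 17 to 24 for M, 24 to 26 for BM, 4 to 10 for B at day 10, 10 to 22 for M, 16 to 26 for BM, 10 to 13 for BM against M at day 4, 3 to 26 at day 10, 0 to 2 for WT days, 0 to 4 for the M effect between days and 10 to 25 for the BM effect. RNA counts ranged, in the same order, from 0 to 1, 10 to 16, 15 to 18, 2 to 7, 9 to 17, 16 to 22, 7 to 10, 8 to 19, 0 to 0, 0 to 1 and 9 to 13. TE counts ranged from 0 to 1 for M and BM at day 4, 0 to 1 for M at day 10 and 0 to 10 for BM at day 10, and stayed at 0 for B at both days.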
